A study of Mus musculus with 4 samples.

Results

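Sox genes encode transcription factors that bind DNA through a high-mobility-group (HMG) box, and 8 members of the family other than Sox2 were followed here in mouse embryonic stem cells depleted of Chd4. The 8 genes were Sox1, Sox3, Sox4, Sox11, Sox12, Sox13, Sox15 and Sox21. They were taken as a named set, and every probe set that the platform annotation assigned to exactly 1 of them was used, which gave 25 of 45037 non-control probe sets and 8 of 18193 genes. Single-colour Affymetrix arrays were hybridised with RNA of the J1 embryonic stem cell line, in which all groups carried the same doxycycline-inducible RNAi construct against Chd4 (line Chd4i-1) and grew on gelatin in serum with leukaemia inhibitory factor. The Chd4 knockdown group (n = 2 arrays) was given doxycycline at 5 ng/ml over 3 days, and control cells (n = 2) were given none. The arrays of each group are described as biological duplicates. The study used 1 RNAi line, and no doxycycline-treated line without the construct was analysed here, so effects of doxycycline, of RNAi and of Chd4 loss cannot be told apart.

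Chd4 is the ATPase of the NuRD remodelling and deacetylase complex. Sox proteins fall into groups by their HMG box. Sox1, Sox3 and the pluripotency factor Sox2 form group B1 and are activators that hold cells in a neural progenitor state, whereas Sox21 belongs to group B2 and represses many of the same targets. Sox4, Sox11 and Sox12 form group C and act in neuronal and mesenchymal precursors, Sox13 is a group D protein that binds TCF factors of the Wnt pathway, and Sox15 is the sole group G member and is present in embryonic stem cells. Sox factors usually act with a partner protein, as Sox2 does with the POU factor Pou5f1 (Oct4) at joint Sox-Oct sites.

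Upstream sequences show how differently the promoters of the 3 genes printed here are built. Sox1 and Sox4 are shown because their brightest probe sets were lower on both knockdown arrays, and Sox15 because its signals were higher. Sox15 did not pass the test described below (adjusted p = 0.16 in limma), and Sox1 was too dim for it. The brightest probe sets of Sox3 and Sox21 were also lower on both knockdown arrays. The window of Sox21 is not printed, and the RefSeq table held none for Sox3. The 3 genes were picked by their signals, and whether CG content goes with the signals was not tested. Each line holds the 250 bases before the annotated start, read 5′ to 3′ on the gene's strand, from RefSeq on build GRCm38.p6, with CG dinucleotides in capitals. The windows are chr8:12395269-12395518 on the plus strand for Sox1, chr13:28953700-28953949 on the minus strand for Sox4 and chr11:69654787-69655036 on the plus strand for Sox15.
Sox1: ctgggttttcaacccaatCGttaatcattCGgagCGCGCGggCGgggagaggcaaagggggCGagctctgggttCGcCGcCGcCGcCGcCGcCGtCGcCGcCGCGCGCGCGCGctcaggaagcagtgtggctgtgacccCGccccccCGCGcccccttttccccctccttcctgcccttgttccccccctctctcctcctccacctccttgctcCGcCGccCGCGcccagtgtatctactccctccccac
Sox4: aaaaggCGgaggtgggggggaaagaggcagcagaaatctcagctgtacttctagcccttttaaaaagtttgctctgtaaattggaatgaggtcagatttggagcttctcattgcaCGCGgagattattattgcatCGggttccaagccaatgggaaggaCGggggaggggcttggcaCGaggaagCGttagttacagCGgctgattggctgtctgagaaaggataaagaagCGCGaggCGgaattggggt
Sox15: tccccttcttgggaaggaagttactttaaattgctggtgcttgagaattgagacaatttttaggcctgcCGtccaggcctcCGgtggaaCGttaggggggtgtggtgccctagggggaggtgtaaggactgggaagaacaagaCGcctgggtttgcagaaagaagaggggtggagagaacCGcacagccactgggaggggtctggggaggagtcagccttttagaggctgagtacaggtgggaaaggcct
The Sox1 window held 29 CG dinucleotides and the Sox4 window 11, against 5 in the Sox15 window. The median over 32851 windows of the same length was 6. The RefSeq table held such windows for 7 of the 8 genes, and the other windows had 17 CG dinucleotides for Sox11, 35 for Sox12, 31 for Sox13 and 17 for Sox21. None of the 7 windows held ACAAAG or ACAATG, letters of the Sox core site searched on both strands, which 25.2% of all windows held. The Sox12 window alone held the octamer ATGCAAAT of POU factors (either strand), found in 1.6% of all windows. A match or its lack describes only the letters of these windows.

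All 3 probe sets of Chd4 were lower on both knockdown arrays, at 48.5% to 65% of control (adjusted p = 0.000244 to 0.00638 in limma). All 10 embryonic stem cell markers examined, among them Pou5f1, Nanog and Zfp42, lay above the median of every array, and their summed signal was 121078 and 118474 in knockdown arrays and 118804 and 121822 in control arrays. Of these markers, Esrrb (-0.29, adjusted p = 0.00445) and Klf4 (-0.25, adjusted p = 0.00702) fell and Utf1 (0.31, adjusted p = 0.00948) and Dppa5a (0.19, adjusted p = 0.0112) rose. All 10 were tested, and over all tested genes 8.81% fell and 11.7% rose. The call of Klf4 ended without control replicate 2 (-0.2, adjusted p = 0.0557), and that of Dppa5a without knockdown replicate 1 (0.15, adjusted p = 0.0595), without control replicate 1 (0.17, adjusted p = 0.058) and under quantile normalization (0.06, adjusted p = 0.206). The call of Utf1 ended and its sign turned when its 3 probe sets were averaged (-0.69, adjusted p = 0.178 in limma). Without control replicate 2 the Utf1 difference was 0.23. Without the intensity trend Esrrb, Klf4, Utf1 and Dppa5a had adjusted p values of 0.128 to 0.243. The median signal per array ran from 73.4 to 79.4. Signals are MAS5 intensities, in which probe sets differ in brightness for the same amount of RNA. Differences were therefore taken only between arrays. A place above or below the array median describes brightness and does not rank genes by amount of RNA. Sums over markers weigh the brightest probe sets most.

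Of the 8 Sox genes, 6 had a probe set above the array median on all 4 arrays: Sox4, Sox11, Sox12, Sox13, Sox15 and Sox21. The brightest probe sets of Sox1 and Sox3 were above it on both control arrays and below it on both knockdown arrays. Over single probe sets, 14 of 25 exceeded the median on all 4 arrays and 7 on none. Differences are log2 signal in knockdown minus control, tested in limma over all genes with a sufficiently bright probe set (a mean signal of 42.4 or more), each gene being represented by its brightest one. Of the 7 Sox genes bright enough for the test, 2 fell (Sox3 and Sox4), where 8.81% of all 12615 tested genes fell. None of the 7 rose at an adjusted p under 0.05, nor at an unadjusted p under 0.05, where 11.7% of all tested genes rose after adjustment. At an unadjusted p under 0.05, 2363 of all 12615 tested genes were higher and 1899 lower. The median log2 difference of the 7 was -0.07, against 0.01 over all tested genes. Sox3 passed the brightness filter through its control arrays, so these counts and medians are descriptions.

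**Figure D1:**
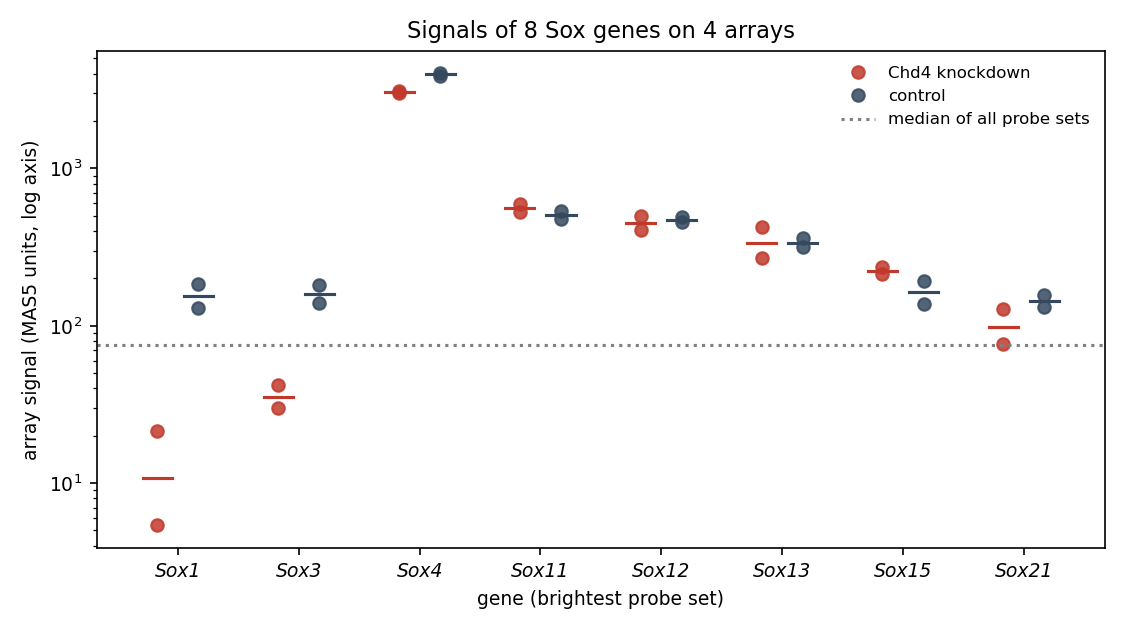
Array signal (MAS5 units, log axis) of the brightest probe set of each of the 8 Sox genes. Each point is 1 array, Chd4 knockdown left and control right (n = 2 arrays each), bars are geometric means, and the dotted line is the median non-control signal of all arrays (76). Sox1 and Sox3 lie above the line in controls and below it in knockdown cells, and the Sox4 groups do not overlap.

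Among the group B1 genes, Sox1, the earliest marker of neural ectoderm, had signals of 21.3 and 5.4 on the knockdown arrays, against 129 and 183 on the control arrays at probe set 1438729_at. Both knockdown signals were dim and the groups were far apart. The mean signal of this probe set over the 4 arrays (40.5, geometric) lay just under the filter of 42.4, so Sox1 was not tested in the main fit. In the fit of all 18193 genes without that filter it fell (log2 difference -3.84 ± 0.71 SE, adjusted p = 0.00791), where 5.06% of genes fell. It also passed the filter and fell when 16 was added to each signal before taking logs (-2.59, adjusted p = 0.000782). With signals under the median set to it, the fold was at least 2.02, a bound that allows for dim signals and not for the spread between arrays. The call ended without control replicate 2 (-3.59, adjusted p = 0.0819), without an intensity trend in the variance model (adjusted p = 0.219) and when both probe sets were averaged (-1.4, adjusted p = 0.325). The second Sox1 probe set, 1422205_at, read 17.8 and 14.3 on knockdown arrays and 6.89 and 8.77 on control arrays. It was far under the median on every array and pointed the other way (1.03 ± 1.02 SE without the filter, adjusted p = 0.66).

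Sox3, the X-linked group B1 factor of neural progenitors and of the developing pituitary and hypothalamus, read 42 and 30 on the knockdown arrays and 140 and 181 on the control arrays at probe set 1435192_at. The groups did not overlap and lay on opposite sides of the array median. Its log2 difference was -2.17 ± 0.36 SE (95% interval -2.96 to -1.37, adjusted p = 0.00186), and the fold was at least 2.1 with dim signals set to the median. Sox3 passed the brightness filter of 42.4 through its control arrays. In the fit of all 18193 genes without that filter it fell (-2.17 ± 0.39 SE, adjusted p = 0.00735 in limma), where 5.06% of genes fell. The other Sox3 probe set, 1450485_at, read 60.2 and 23.4 on knockdown arrays and 38.2 and 53.1 on control arrays. These groups overlapped, all 4 signals were under the median, and the probe set was too dim for the test. The call for Sox3 therefore rests on 1 probe set, and it ended when both were averaged (-1.22, adjusted p = 0.121).

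Sox2, the remaining group B1 gene, which was not one of the 8, read 13787 and 14299 on knockdown arrays and 13466 and 13244 on control arrays. It did not pass the test (0.07 ± 0.05 SE, 95% interval -0.03 to 0.17, adjusted p = 0.308).

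The group B2 repressor gene Sox21 read 127 and 77 on knockdown arrays, against 157 and 132 on control arrays, at probe set 1437059_at. Knockdown signals were the lower ones without overlap, but the 2 knockdown arrays differed from each other and the gene did not pass (-0.55 ± 0.30 SE, 95% interval -1.2 to 0.11, adjusted p = 0.228). The difference was -0.19 without knockdown replicate 2 and -0.91 without knockdown replicate 1, and passed in neither case (adjusted p = 0.729 and 0.08). Its second probe set, 1451835_at, was under the median on all arrays and read 70.6 and 8.88 in knockdown cells and 70.5 and 46 in control cells.

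In group C, Sox4, a factor of neuronal, lymphoid and cardiac precursors, had the smaller but more tightly measured fall. At its brightest probe set, 1433575_at, signals were 3019 and 3122 on knockdown arrays and 3897 and 4022 on control arrays, so the gap between the groups was wider than the spread within either. This was 77.5% of control (log2 difference -0.37 ± 0.06 SE, 95% interval -0.5 to -0.23, adjusted p = 0.00178). Without the intensity trend it did not pass (adjusted p = 0.0959). The gene has 8 probe sets here, and the 4 that were above the median on all arrays were all lower in knockdown cells without overlap.

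The next Sox4 probe sets in brightness were tested in a second limma fit over 27022 probe sets. Probe set 1419155_a_at read 404 and 399 on knockdown arrays and 642 and 631 on control arrays (-0.67 ± 0.12 SE, adjusted p = 0.00356). Probe set 1419156_at read 586 and 475 on knockdown arrays and 716 and 703 on control arrays (-0.43 ± 0.13 SE, adjusted p = 0.0426). Its call ended without knockdown replicate 2 (-0.28, adjusted p = 0.204), without control replicate 1 (-0.42, adjusted p = 0.139) and without control replicate 2 (-0.44, adjusted p = 0.112), and it held in 4 of 10 alternative settings. Probe set 1419157_at read 451 and 353 on knockdown arrays and 515 and 453 on control arrays and did not pass (-0.28 ± 0.15 SE, adjusted p = 0.265). The 4 bright probe sets thus had log2 differences from -0.28 (1419157_at) to -0.67 (1419155_a_at), and whether these differ was not tested.

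The remaining 4 Sox4 probe sets were dim and their groups overlapped. Probe set 1449370_at read 82.6 and 72.2 on knockdown arrays and 81.6 and 79.4 on control arrays (-0.06 ± 0.32 SE, adjusted p = 0.929). Probe set 1455867_at read 96.8 and 57.2 on knockdown arrays and 58.9 and 64.1 on control arrays (0.28 ± 0.39 SE, adjusted p = 0.707). The last 2 probe sets had signals of 1.4 to 13.7 and were not tested. When all 8 were averaged with equal weight, the call for Sox4 ended (-0.19, adjusted p = 0.632).

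Sox11, a group C factor of immature neurons, did not pass at any of its 6 probe sets. The brightest, 1436790_a_at, read 597 and 529 on knockdown arrays and 533 and 477 on control arrays, so the groups overlapped (0.16 ± 0.12 SE, 95% interval -0.12 to 0.43, adjusted p = 0.416). With all 6 averaged the sign turned (-0.15, adjusted p = 0.656), and with 1 array left out the brightest ran from 0.07 to 0.24. Its probe sets did not share a direction, with 1453125_at and 1429051_s_at at 0.11 and 0.07, and 1429372_at, 1453002_at and the dim 1431225_at at -0.39, -0.27 and -0.57. Of these, 1429372_at was the one whose groups did not overlap, with 147 and 170 on knockdown arrays and 217 and 198 on control arrays (adjusted p = 0.237). The interval of the brightest probe set reaches from a fall smaller than that of Sox4 to a modest rise.

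Sox12, the third group C gene, read 496 and 405 on knockdown arrays and 456 and 488 on control arrays at 1455562_at, with overlapping groups (-0.07 ± 0.14 SE, 95% interval -0.37 to 0.23, adjusted p = 0.753). The difference was -0.22 without knockdown replicate 1 and 0.07 without knockdown replicate 2, and -0.68 with its 3 probe sets averaged, the dimmest included (adjusted p = 0.391, 0.8 and 0.315). Its probe set 1439754_at read 222 and 211 on knockdown arrays and 277 and 224 on control arrays and did not pass (-0.2 ± 0.18 SE, adjusted p = 0.529). The third, 1456882_at, read at most 20.4 on any array. Whether Sox4 differed in its response from Sox11 and Sox12 was not tested.

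Sox13, the group D gene, had 1 probe set, which read 422 and 269 on knockdown arrays and 361 and 316 on control arrays. The knockdown arrays enclosed both controls and the mean difference was near 0 (-0.003 ± 0.2 SE, adjusted p = 0.994). It was -0.33 without knockdown replicate 1 and 0.32 without knockdown replicate 2 (adjusted p = 0.284 and 0.25). With an interval of -0.44 to 0.44, a change of the size seen for Sox4 was not detectable at this precision.

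Sox15, whose protein can pair with Pou5f1 in embryonic stem cells, had the highest log2 difference of the 7 tested genes. It read 235 and 214 on knockdown arrays and 138 and 192 on control arrays, so both knockdown signals were above both controls. The difference did not pass (0.46 ± 0.22 SE, 95% interval -0.01 to 0.94, adjusted p = 0.16), and it lay between 0.23 and 0.70 over all alternative settings.

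**Figure D2:**
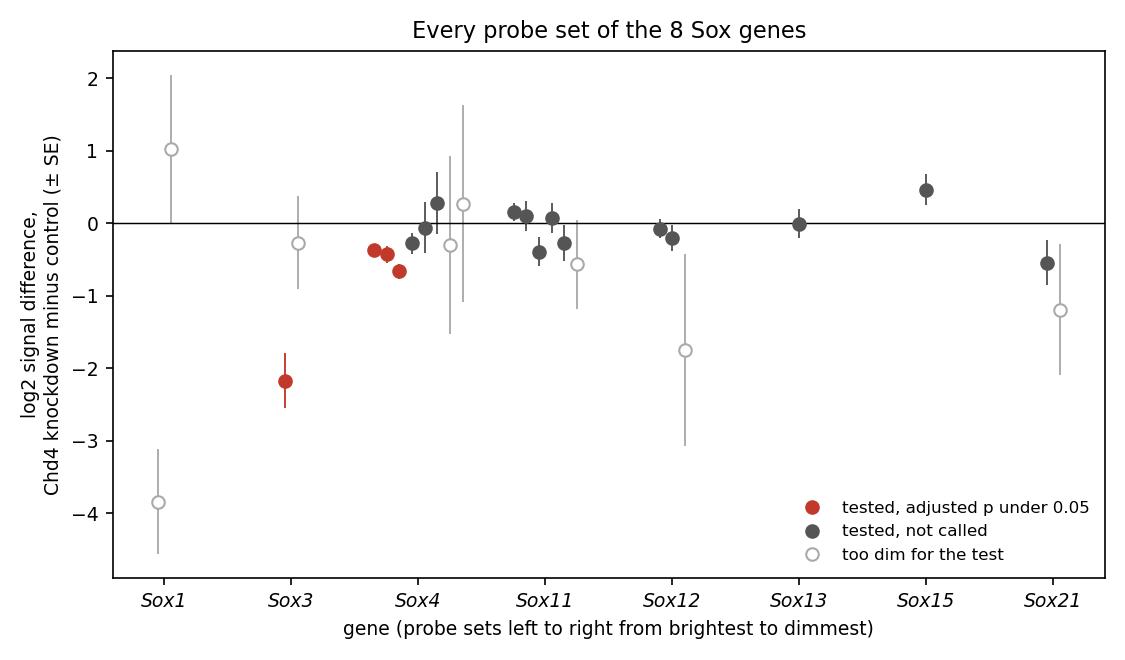
Log2 signal difference, Chd4 knockdown minus control, of all 25 probe sets of the 8 Sox genes, from brightest (left) to dimmest within each gene (bars are SE from the fit without a brightness filter). Colours show the calls of the main probe set fit: 4 filled red points passed, 1 of Sox3 and 3 of Sox4, all below 0, and open points were too dim for that fit.

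Over probe sets, 17 of the 25 were bright enough for the test and 4 of them fell, where 6.77% of all 27022 tested probe sets fell. Without the intensity trend 0 of the 17 passed. The 4 were 1433575_at, 1419156_at and 1419155_a_at of Sox4 and 1435192_at of Sox3. Probe sets of the same gene are not separate members, and that of Sox3 passed the filter through its control arrays. The count is therefore only a description. No Sox probe set rose at an adjusted p under 0.05, where 7.46% of all tested did. None was higher at an unadjusted p under 0.05 either. The 2 groups did not overlap for 9 of the 17, against 55.9% of all tested probe sets, and for 4 of the 7 tested genes, against 60.6% of all tested genes. Lack of overlap was thus about as common among the Sox genes as elsewhere on the arrays, and it is given above only to describe the signals.

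The other Sox genes measured here gave no call. Of 12 (Sox2, Sox5, Sox6, Sox7, Sox8, Sox9, Sox10, Sox14, Sox17, Sox18, Sox30 and Sry), Sox2 was above the median on all 4 arrays, 3 on 1 array each and 8 on none. Without Sox2, their brightest probe sets read 3.68 to 87.8. Of the 5 bright enough for the test, none passed at an adjusted or an unadjusted p under 0.05 in limma. Sox7, a group F gene of endoderm and vessels, read 80.4 and 54.8 on knockdown arrays and 37.7 and 30.9 on control arrays (0.96 ± 0.47 SE, adjusted p = 0.181). Sox17, its relative and a marker of endoderm, read 24.3 and 8.22 on knockdown arrays and 46.4 and 43 on control arrays, all under the median, and was not tested. The other probe set of each gene was under the median on every array, was not tested and pointed the opposite way (-1.51 for Sox7, 0.47 for Sox17).

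Partner genes of Sox proteins included some of the wider changes. Of 10 on the array, 7 were tested, 3 rose and none fell, where 11.7% of all tested genes rose and 8.81% fell. At an unadjusted p under 0.05, 1 of the 7 was lower, against 1899 of all 12615 tested genes. The median log2 difference of the 7 was 0.01. Under quantile normalization, and without knockdown replicate 1, the number that fell was 1. Otx2, a homeobox factor of the epiblast and anterior neural plate, read 4732 and 4955 on knockdown arrays, against 805 and 737 on control arrays, and rose (2.65 ± 0.08 SE, adjusted p = 6.3e-09). Zic2, a zinc finger factor of the epiblast and neural plate, read 331 and 353 on knockdown arrays, against 72.6 and 52.8 on control arrays, and rose (2.46 ± 0.24 SE, at least 4.49-fold, adjusted p = 5.88e-05). Sall4, a zinc finger pluripotency factor, read 7530 and 7551 on knockdown arrays and 6255 and 6303 on control arrays and rose by less (0.26 ± 0.05 SE, adjusted p = 0.00411). Pou5f1 (-0.17 ± 0.06 SE, adjusted p = 0.065) and the neural POU gene Pou3f1 (-0.12 ± 0.21 SE, adjusted p = 0.729) did not pass.

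Genes known to be driven by joint Sox-Oct sites in embryonic stem cells gave 3 rises and no fall among 8 tested. The shares over all tested genes were 11.7% and 8.81%. At an unadjusted p under 0.05, 1 of the 8 was lower, against 1899 of all 12615 tested genes. The median log2 difference of the 8 was 0.07. The number that fell was 1 under quantile normalization. Pou5f1 and Nanog are members of both this list and the partner list. The 1 gene counted as lower before adjustment was Pou5f1 in each, so these counts of lower genes are not separate results. Fbxo15 (0.76 ± 0.07 SE, adjusted p = 3.38e-05), the Nodal antagonist gene Lefty1 (0.61 ± 0.10 SE, adjusted p = 0.00125) and the chromatin factor gene Utf1 (0.31 ± 0.07 SE, adjusted p = 0.00948) rose. The call of Utf1 ended without control replicate 2 (0.23, adjusted p = 0.0776), and its sign turned when its 3 probe sets were averaged (-0.69, adjusted p = 0.178). Fgf4, a growth factor gene and a classic target of this kind, did not pass (-0.1 ± 0.06 SE, adjusted p = 0.313).

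Neural progenitor genes, many of them bound by group B1 factors in neural cells, gave 1 rise and 2 falls among 11 tested, against 11.7% and 8.81% of all tested genes. Their median log2 difference was -0.16. Msi1, an RNA-binding protein gene of neural stem cells, read 228 and 192 on knockdown arrays and 389 and 421 on control arrays, and fell (-0.95 ± 0.16 SE, adjusted p = 0.002). Gli2, a transcription factor gene of Hedgehog signalling, read 1209 and 1476 on knockdown arrays and 2492 and 2470 on control arrays, and fell (-0.89 ± 0.09 SE, adjusted p = 8.15e-05). Ncan, which encodes a proteoglycan of brain matrix, read 411 and 319 on knockdown arrays and 190 and 182 on control arrays, and rose (0.96 ± 0.18 SE, adjusted p = 0.00346). The calls of Msi1 and Ncan ended when probe sets were averaged (-0.74 and 0.44, adjusted p = 0.443 and 0.36). The intermediate filament gene Nes did not pass (145 and 92.2 on knockdown arrays, 119 and 152 on control arrays, adjusted p = 0.655).

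Neuronal genes of the kind that group C factors act on gave 1 rise and 2 falls among 8 tested, against 11.7% and 8.81% of all tested genes, with a median of -0.22. The neurofilament gene Nefl fell (-0.75 ± 0.16 SE, adjusted p = 0.00691) and so did Stmn2, a microtubule regulator gene (-0.2 ± 0.05 SE, adjusted p = 0.0125), while the neuronal tubulin gene Tubb3 rose (0.3 ± 0.08 SE, adjusted p = 0.027). The call of Tubb3 ended without knockdown replicate 2 (0.27, adjusted p = 0.103) and without control replicate 2 (0.23, adjusted p = 0.166), and that of Stmn2 without control replicate 2 (-0.18, adjusted p = 0.0825) and when probe sets were averaged (-0.13, adjusted p = 0.0957). Tead2, a known target of Sox4 and Sox11, did not pass (-0.28 ± 0.12 SE, adjusted p = 0.132). Of 7 tested TCF and Wnt genes, the pathway in which Sox13 acts, Lef1 alone rose (1.04 ± 0.22 SE, adjusted p = 0.00759), against 11.7% of all tested genes. None fell, against 8.81% of all tested genes, and the median was -0.26. At an unadjusted p under 0.05, 3 of the 7 were higher and 2 lower, against 2363 and 1899 of all 12615 tested genes. Without control replicate 1 the number that rose was 2. Lef1 was no longer called without knockdown replicate 2 (0.92, adjusted p = 0.0535) or with its probe sets averaged (0.84, adjusted p = 0.123). Without an intensity trend in the variance model, every call named in these lists other than those of Otx2 and Zic2 ended, with adjusted p values of 0.0528 to 0.208.

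**Figure D3:**
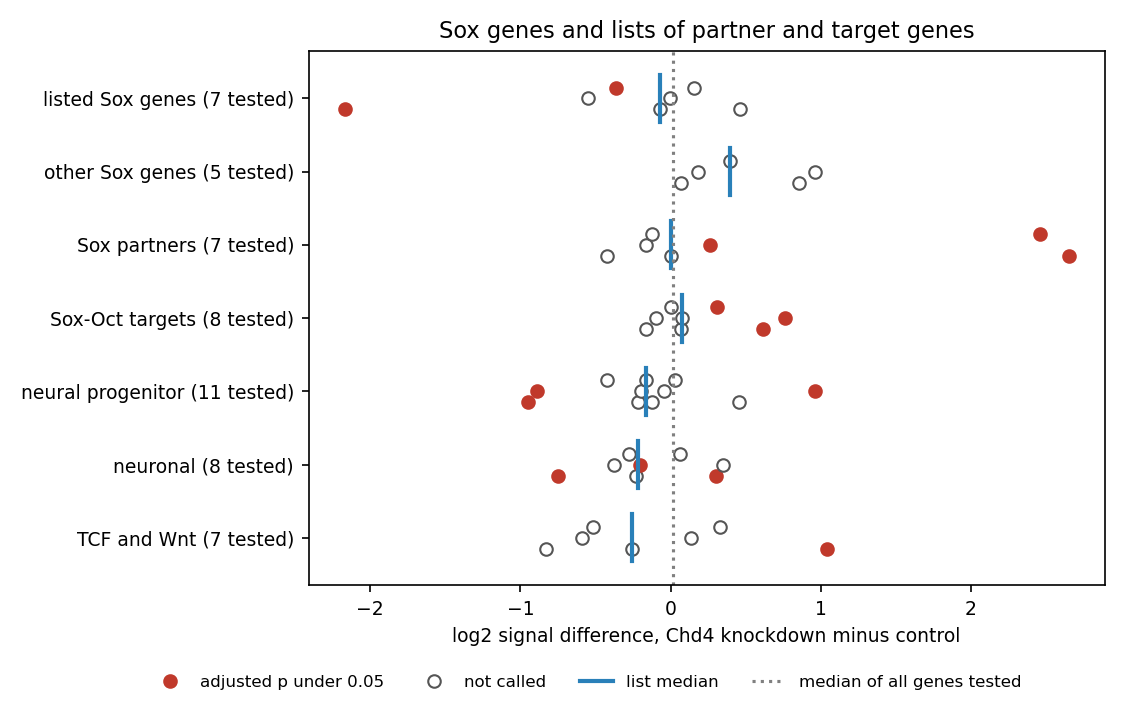
Log2 signal difference, Chd4 knockdown minus control, of each tested gene of the Sox set and of 6 lists of related genes, with filled points for genes that passed (adjusted p under 0.05), blue bars for list medians and a dotted line for the median of all tested genes (0.01). The 2 called Sox genes lie below 0, and the widest rises among the lists are those of the partner genes Otx2 and Zic2.

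Markers of other cell types were mostly dim. Of 6 neural progenitor markers, 1 was above the median on all arrays and 4 on none. Of the 2 tested, none passed. The summed signal of the 6 was 281 and 211 on knockdown arrays and 278 and 305 on control arrays, beside the lower Sox1 and Sox3. Of 7 primitive endoderm markers 1 was above the median on all arrays (sums of 480 and 436 in knockdown, 378 and 374 in control). Of the 5 tested none passed. At an unadjusted p under 0.05, 1 of the 5 was higher, against 2363 of all 12615 tested genes. Of 7 trophectoderm markers 3 were above the median on all arrays, with sums of 2389 and 2422 in knockdown and 1496 and 1561 in control. Of the 4 tested, the keratin genes Krt18 and Krt7 rose (1.15 and 1.71, adjusted p = 1.74e-05 and 0.000718 in limma), where 11.7% of all tested genes rose. The keratin gene Krt8 did not pass (713 and 779 in knockdown, 670 and 682 in control, 0.14, adjusted p = 0.374). Of the regulators in that list, Cdx2, Elf5 and Gata3 were under the median on every array, and Eomes was above it on all 4 (147 and 129 in knockdown, 142 and 184 in control, adjusted p = 0.552). Of 8 fibroblast markers 2 were above the median on all arrays, with sums of 897 and 800 in knockdown and 457 and 561 in control. Of the 3 tested, Thy1 rose (1.61, adjusted p = 3.99e-05 in limma), where 11.7% of all tested genes rose. Without Thy1 the sums were 296 and 253 in knockdown and 281 and 361 in control, and the other bright marker, Pdgfrb, read 123 and 128 in knockdown and 157 and 163 in control. Their part in the Sox results was not tested, and in these bulk samples fewer cells that express a Sox gene and less RNA per cell cannot be told apart.

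The genes whose 4 log2 signals, each centred on its own mean, lay nearest to those of Sox3 by Euclidean distance over the 4 arrays were Abca1, a cholesterol transporter gene (distance 0.233), and Zadh2 (0.262). Abca1 read 251 and 200 on knockdown arrays and 872 and 970 on control arrays, and Zadh2 read 54.7 and 49 against 192 and 280. No tested gene came within 0.2 of Sox3. For Sox4 the nearest were Pdgfrb (0.0151), a receptor kinase gene that itself did not pass (adjusted p = 0.311 in limma), and Tmem237 (0.0162). Within 0.2 of Sox4 lay 1077 genes. The centred signals were not scaled, so the number of near genes also depends on the size of the difference, which was smaller for Sox4.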

How the data were processed

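The authors deposited MAS5 signals, that is, linear intensity values with 1 value per probe set and array per the submitters' processing notes. Neither its version nor its scaling target is given in the sources used here. Mean signals with both tails trimmed were 496.5 to 497.2, so the arrays share a scale. Groups came from the sample titles. Of the non-control probe sets, 34945 had 1 gene symbol, 932 several and 9160 none in the platform annotation, and 0 symbols needed an update through the Entrez ID. Probe sets with several symbols or none were left out of the gene fit and kept in the probe set fit, and 64 control probe sets were left out.

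Tested were the 27022 non-control probe sets in the top 60% by mean log2 signal, and the 12615 genes whose brightest probe set reached that cut. Tests were two-sided on log2 signal without a pseudocount, with limma 3.58.1 under R 4.3.3. The functions were lmFit and eBayes, the prior variance followed signal intensity, and the fit had 2 residual plus 9.12 prior degrees of freedom. Benjamini-Hochberg adjustment ran over all features tested, and a call is an adjusted p under 0.05. Errors are standard errors of this fit, and "at least" folds set signals under the median (76) to it. With 2 arrays a group, their number limits the precision. On simulated data for Chd4 knockdown against control, with 12615 genes, the fit recovered 44.8%, 71.6% and 84.8% of genes changed by 1.5-fold, 2-fold and 4-fold, with 10 false calls. Named were all 8 Sox genes, the other Sox genes, Chd4, up to 5 called members of each list, and the 2 nearest profiles of each called Sox gene. Genes given beside these as uncalled examples or markers were picked after their values were seen. The members and lists were chosen with earlier results of these data known. Other settings were a pseudocount of 16, quantile normalization, other filters, no intensity trend, averaged probe sets, a replicate block and each array left out.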

Additional observations from a re-analysis of the deposited data

How the results depend on the processing

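The count of Sox genes that fell, 2, dropped to 1 without an intensity trend in the variance model and to 1 in the top 40% of probe sets, where Sox3 was no longer tested, and to 0 with each gene's probe sets averaged. It was 3, with Sox1 added, when 16 was added to each signal and when no filter was set. The count of Sox probe sets called, 4, became 0 without the trend, as did that of Chd4 probe sets, 3. The count of Sox probe sets was 5 with 16 added to each signal and 3 or 4 in the other settings. Without the trend 421 genes were called in all, against 2592, and 1380 when probe sets were averaged. Without the trend Sox4 had an adjusted p of 0.0959 and Sox3 of 0.0438, and Sox1, without a filter, of 0.219. Under these settings no call of a Sox gene reversed, and no Sox gene was called higher. Sox1 was tested with 16 added to each signal, which brought it past the filter, and where no filter was set. Its other settings, starting from the fit without a filter, were chosen after seeing the data: its difference was -2.59 with 16 added (adjusted p = 0.00491) and -1.4 with its probe sets averaged (adjusted p = 0.325). With each array left out in turn, the log2 difference ran from -2.41 to -1.92 for Sox3 and from -0.39 to -0.34 for Sox4, both called each time. With the replicate number as a block the counts of Sox genes that fell (2) and of Sox probe sets called (4) were as before, with 2260 genes called in all. Same-numbered arrays share only a number: their deviations from the group means correlated at 0.0176. With 2 arrays a group, dim probe sets had standard errors up to 1.36 on the log2 scale.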
